A study of Xenopus laevis with 6 samples.

Results

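The growth cone protein GAP43, the stathmins and the collapsin response mediator proteins (CRMPs) were followed in Xenopus laevis tadpoles at stage 46, in the optic tectum, the midbrain region that receives retinal axons. The members were all annotated copies of 10 gene symbols, gap43, stmn1 to stmn4, dpysl2 to dpysl5 and crmp1, which made 20 genes of the 45099 in the deposited annotation. Each symbol had an L and an S copy, from the long and the short subgenome of this allotetraploid frog, so there were 10 pairs. RNA came from 3 libraries of immature neuron-enriched tissue of animals given visual stimulation (IN) and 3 libraries of neural progenitor-enriched tissue of animals kept in the dark (NPC), each numbered 1 to 3. The labels name no strain, genotype, allele or drug for any of the 6 libraries. Every IN library was also visually stimulated and every NPC library also dark-exposed, so the parts of population and visual experience cannot be told apart. The sources used here do not give the method of enrichment, or whether animals were pooled. The spread between libraries of a group, which lies behind the p-values, may be technical. In edgeR, which gave the main tests, the spread of other genes entered as well. An SE or p-value from it does not rest on that gene's libraries alone.

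GAP43 lies on the inner face of the growth cone membrane, where it binds calmodulin and is phosphorylated by protein kinase C, and it is a classical marker of growing and regenerating axons, also in the retinotectal projection of fish and frogs. Stathmins bind tubulin and promote microtubule disassembly. Stathmin 1 is cytosolic and also abundant in dividing cells, while stathmins 2 (SCG10), 3 (SCLIP) and 4 (RB3) are anchored to membranes and largely neuronal. CRMPs are cytosolic proteins that bind tubulin and other cytoskeletal partners and act downstream of semaphorin 3A in growth cone collapse.

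Reads counted over mRNA came to 9388103, 9747548 and 9914191 in IN and 8422751, 9655246 and 8480161 in NPC. Levels are CPM, reads scaled to a common library total after TMM, a correction for differences in composition. The biological coefficient of variation fitted over all genes was 111%. The median SE of a log2 fold change was 0.568 for the members, against 1.41 for all genes tested. These medians were not matched on level. All 20 members passed the filter on low counts, with 83 reads or more in every library. Marker genes of neurons (7 of 10 symbols annotated, 14 copies) summed to 1900.3 to 2499.7 CPM in IN and 2150.1 to 2897 CPM in NPC, and those of progenitors and radial glia (8 of 10 symbols, 14 copies) to 1655 to 3157 CPM in IN and 1216 to 2760.1 CPM in NPC. No copy in these lists was at 0, and both sums overlapped between the groups, so neither list set the populations apart by level. Markers of oligodendrocytes, microglia and leukocytes, endothelium, erythroid cells, retina and lens, and skin summed to at most 449.7 CPM in any library (skin genes in an IN library), with hba1 and cryba1 at 0 in all 6. Microglia and leukocyte genes summed to 20.5 to 97.97 CPM in IN and 8.50 to 22.3 CPM in NPC. Endothelial genes summed to 22.6 to 99.8 CPM in IN and 47.6 to 175 CPM in NPC, and erythroid genes to 0.721 to 8.62 CPM in IN and 1.77 to 145 CPM in NPC. Each of these 3 ranges overlapped between the groups, and their part in the results was not tested. In such bulk RNA, fewer cells of a type and less RNA per cell cannot be told apart.

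Both GAP43 copies had lower means in IN than in NPC, and neither passed the main test. gap43.L (2L, 3678237 to 3711327, plus strand, build 9.1) was at 1088, 1582 and 1428 CPM in IN and 1404, 2696 and 1667 CPM in NPC. Both groups overlapped, since the lowest NPC library was below 2 of the IN libraries. gap43.S (2S, 27033514 to 27062961, minus strand) was at 171, 448 and 981 CPM in IN and 570.5, 873 and 1832 CPM in NPC. Its values spanned 10.7-fold over the 6 libraries, against 2.48-fold for gap43.L, and in both groups the library numbered 1 was lowest and the library numbered 3 highest. Fold changes are given as log2 of IN over NPC, and they were -0.49 (SE 0.41, unadjusted p 0.245) for gap43.L and -1.03 (SE 0.57, unadjusted p 0.0843) for gap43.S, with 95% intervals of -1.35 to 0.37 and -2.22 to 0.15 (edgeR's quasi-likelihood test, adjusted p 1.000 for each). Over its alternatives the adjusted p of gap43.S ran from 0.0130 to 1.000, and 1 of 16 alternatives, chosen after seeing the data and given with the processing, called it lower in IN. Without NPC replicate 3 the gap43.S value was -0.44, and without IN replicate 3 it was -1.81. The copies together summed to 1259, 2029.8 and 2409.8 CPM in IN and 1975, 3569 and 3499 CPM in NPC, with overlap through 1 NPC library.

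**Figure D1:**
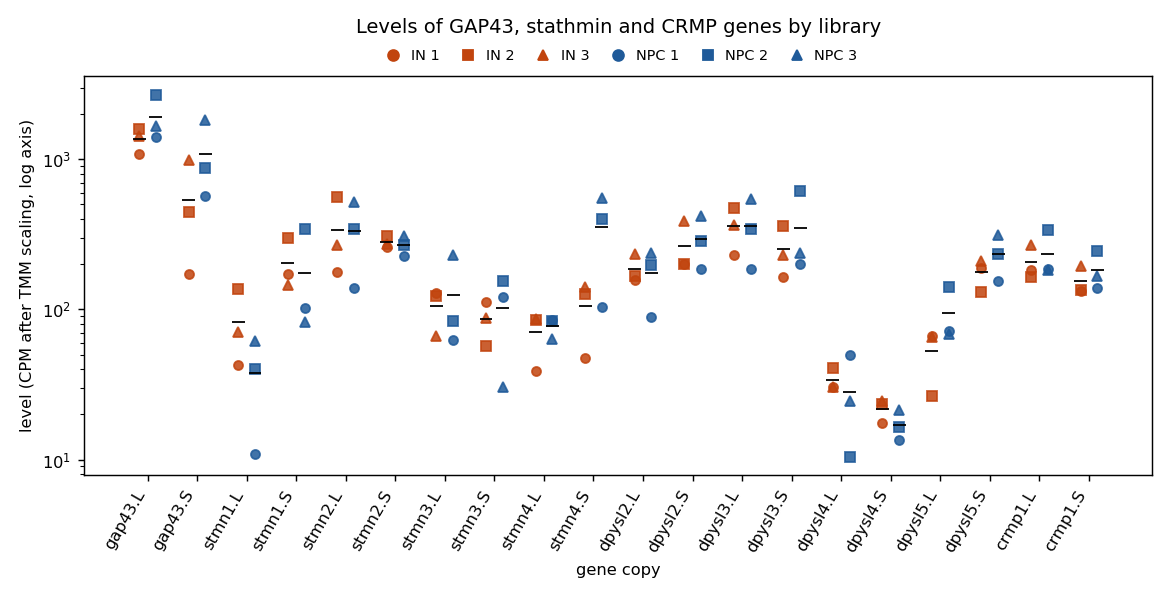
Level of each gene copy in each library, in CPM after TMM scaling on a log axis, with IN libraries left of NPC libraries, symbols for the library number and a bar at each group mean. gap43.L lay at 1088 CPM or more in every library, gap43.S ran from 171 to 1832 CPM, and the groups overlapped for every copy but dpysl5.L.

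Among the stathmins, stmn4.S had the lowest unadjusted p in the main test, where it was also the lowest of all 20 members. With limma-voom, with either coding table and without IN replicate 3, gap43.S had a lower one. The same held with the replicate number in the model, for mRNA and for coding counts (the replicate block, given with the processing). stmn4.S (5S, 132880619 to 132930650, minus strand) was at 47.5, 127 and 141 CPM in IN and 104, 400.0 and 550.2 CPM in NPC. The 2 highest NPC libraries lay above every IN library, while NPC replicate 1 lay inside the IN range, so the groups overlapped. Its log2 fold change was -1.74 (SE 0.64, unadjusted p 0.0126), with a 95% interval of -3.06 to -0.42, and it did not pass after adjustment over all genes (adjusted p 1.000, edgeR; 0.459 to 1.000 over the alternatives). The exact permutation test over the libraries gave stmn4.S a p of 0.3. The gene overlaps ptk2b.S, a tyrosine kinase gene on the opposite strand, over 3640 bases. ptk2b.S had 120 reads in all 6 libraries together. The other copy, stmn4.L (5L, 154131634 to 154177686, minus strand), was at 39.0, 85.4 and 86.5 CPM in IN and 85.2, 83.2 and 63.5 CPM in NPC, with a log2 fold change of -0.14 (SE 0.73, unadjusted p 0.853). The difference between the fold changes of the copies was not tested across all genes; the share of reads on each copy is given further on.

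Stathmin 1, the form shared with dividing cells, had in stmn1.L the only mean in the set that was more than 2-fold higher in IN, which rested on single libraries. stmn1.L (2L, 59926503 to 59938228, plus strand) was at 42.6, 136 and 70.5 CPM in IN and 10.9, 40.1 and 62.0 CPM in NPC. NPC replicate 1 was the lowest library and IN replicate 2 the highest, 12.5-fold apart, and the groups overlapped. The log2 fold change was 1.14 (SE 0.87, unadjusted p 0.203). It was 0.58 without IN replicate 2, 0.69 without NPC replicate 1 and 1.70 without NPC replicate 3. The more abundant stmn1.S (2S, 62257841 to 62268420, minus strand) was at 172, 298 and 145 CPM in IN and 102, 343 and 81.8 CPM in NPC. Both libraries numbered 2 were high, and its log2 fold change was 0.22 (SE 0.62, unadjusted p 0.721).

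Stathmin 2 (SCG10), a protein of neuronal growth cones, had 1 copy with nearly even levels and 1 that varied. stmn2.S (6S, 100691749 to 100715830, plus strand) was at 262, 309 and 271 CPM in IN and 228, 269 and 306 CPM in NPC. Its highest library was 1.35 times its lowest, the narrowest range among the 20 members, and its log2 fold change was 0.07 (SE 0.49, unadjusted p 0.893) with a 95% interval of -0.95 to 1.08. stmn2.L (6L, 123940267 to 123962792, plus strand) was at 177, 565 and 268 CPM in IN and 138, 341 and 521 CPM in NPC, a range of 4.08-fold. Its log2 fold change was 0.01 (SE 0.57, unadjusted p 0.980), with an interval of -1.17 to 1.20. The even values of stmn2.S held for reads over the whole mRNA; over coding sequence it had 841, 1165 and 1008 reads in IN and 1077, 430 and 1044 reads in NPC.

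Stathmin 3 (SCLIP) is a close relative of stathmin 2, and its copies varied with no common order. stmn3.L (9_10L, 18244170 to 18251337, plus strand) was at 128, 123 and 66.4 CPM in IN and 62.5, 84.2 and 229 CPM in NPC. stmn3.S (9_10S, 16842422 to 16850060, plus strand) was at 112, 57.4 and 88.0 CPM in IN and 122, 153 and 30.6 CPM in NPC. NPC replicate 3 was thus the highest library for stmn3.L and the lowest for stmn3.S. The log2 fold changes were -0.24 (SE 0.66, unadjusted p 0.720) for stmn3.L and -0.25 (SE 0.72, unadjusted p 0.732) for stmn3.S. Summed over copies, stathmin 3 was at 240.5, 180.3 and 154 CPM in IN and 184, 238 and 259 CPM in NPC.

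Of the 10 CRMP genes, dpysl5.L was the only member of the whole set whose groups did not overlap. dpysl5 encodes CRMP5, a family member expressed mainly in young neurons. dpysl5.L (5L, 158259478 to 158289961, plus strand) was at 66.1, 26.4 and 65.5 CPM in IN and 71.9, 141 and 68.7 CPM in NPC. The gap was small, from 66.1 CPM in the highest IN library to 68.7 CPM in the lowest NPC library, and the log2 fold change was -0.84 (SE 0.75, unadjusted p 0.280), not past the test. The exact permutation p was 0.1, the smallest that 3 libraries against 3 can give. Over coding sequence dpysl5.L had 130, 59 and 168 reads in IN and 320, 355 and 312 reads in NPC, also without overlap, and its log2 fold change there was -1.69 (unadjusted p 0.175, edgeR). The more abundant dpysl5.S (5S, 135693171 to 135718812, plus strand) was at 188, 131 and 211 CPM in IN and 156, 232 and 315 CPM in NPC, with a log2 fold change of -0.41 (SE 0.54, unadjusted p 0.458).

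dpysl2 encodes CRMP2, the member best known for binding tubulin dimers and promoting axon formation. dpysl2.L (3L, 120819474 to 120867437, plus strand) was at 156, 166 and 234 CPM in IN and 89.3, 197 and 237 CPM in NPC. dpysl2.S (3S, 23967803 to 23999829, minus strand) was at 200.2, 202 and 386 CPM in IN and 187, 284 and 417 CPM in NPC. In each group the library numbered 3 was highest for both copies. The log2 fold changes were 0.09 (SE 0.56, unadjusted p 0.876) and -0.17 (SE 0.52, unadjusted p 0.747), with intervals of -1.09 to 1.26 and -1.26 to 0.92.

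dpysl3 encodes CRMP4, which also binds actin. dpysl3.L (3L, 36906201 to 36961117, plus strand) was at 229.9, 476 and 364 CPM in IN and 185, 346 and 546 CPM in NPC, with the highest library in NPC and near-equal group means. Its log2 fold change was -0.01 (SE 0.52, unadjusted p 0.987), with an interval of -1.09 to 1.07. dpysl3.S (3S, 101251736 to 101345546, minus strand) was at 164, 359.9 and 232 CPM in IN and 200.4, 611 and 238 CPM in NPC. Both libraries numbered 2 were its highest in their group, and its log2 fold change was -0.47 (SE 0.55, unadjusted p 0.399). crmp1, which encodes CRMP1, another member of the family, was at 184, 165 and 268 CPM in IN and 185, 337 and 183 CPM in NPC for crmp1.L (1L, 17918909 to 17968120, plus strand). crmp1.S (1S, 16369024 to 16403329, plus strand) was at 132, 135 and 195 CPM in IN and 139, 245 and 167 CPM in NPC. NPC replicate 2 was the highest library for both copies, and the log2 fold changes were -0.19 (SE 0.53, unadjusted p 0.719) and -0.26 (SE 0.55, unadjusted p 0.648).

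dpysl4, which encodes CRMP3, was the least abundant of the 10 symbols. dpysl4.L (7L, 16004858 to 16039575, minus strand) had 310, 402 and 295 reads in IN and 467, 83 and 193 reads in NPC, and dpysl4.S (7S, 12195976 to 12227328, minus strand) had 177, 230 and 238 reads in IN and 127, 131 and 168 reads in NPC. The log2 fold changes were 0.27 (SE 1.06, unadjusted p 0.800) and 0.35 (SE 1.26, unadjusted p 0.782). These 2 genes had the widest 95% intervals of the set, -1.94 to 2.48 and -2.28 to 2.99.

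Over the whole set, 0 of 20 members passed edgeR's test after Benjamini-Hochberg adjustment over 19158 genes, against 0.00% of all genes. DESeq2 and limma-voom also called 0 of 20, where DESeq2 called 88 and limma-voom 0 of the 19158 genes. At an unadjusted p under 0.05, 1 member was lower in IN (stmn4.S) and 0 were higher, or 5% of members, against 3.43% of all genes tested, 1.93% lower and 1.51% higher in IN. The groups did not overlap in 1 of 20 members, lower in IN, against 8.76% of all genes, 4.06% lower and 4.70% higher in IN. The fold change was below 0 in 13 members and above 0 in 7, against 51.0% of all genes below 0, and the median was -0.18, against -0.03 over all genes. By family, both GAP43 copies, 4 of 8 stathmin genes and 7 of 10 CRMP genes had a fold change below 0. The 95% interval of the median member reached 1.18 to each side on the log2 scale, and in 9 of 20 members it held both a 2-fold higher and a 2-fold lower level in IN. Summed over the 8 genes, stathmins were at 980.5, 1701 and 1137 CPM in IN and 854, 1715 and 1844 CPM in NPC, and summed over the 10 genes, CRMPs were at 1368, 1725 and 2011 CPM in IN and 1277, 2420.2 and 2217 CPM in NPC. IN replicate 1 and NPC replicate 1 were the lowest libraries of their group for GAP43, stathmin and CRMP sums alike.

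**Figure D2:**
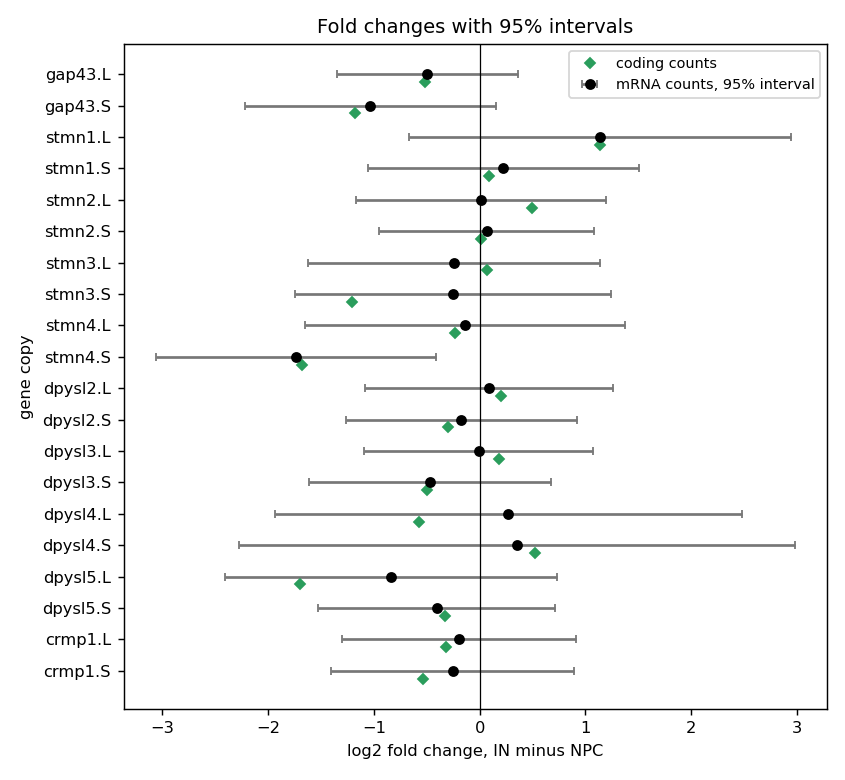
Log2 fold change (IN minus NPC) of each gene copy from mRNA counts with its 95% interval (black) and from coding counts (green diamonds, no interval drawn). Of the 20 intervals, 1 lay wholly below 0 (stmn4.S, -3.06 to -0.42), and it did not pass after adjustment over all genes.

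Levels were then ordered per length, as CPM per kb of annotated exon, over all 6 libraries. gap43.L was first at 1303 ± 438 CPM per kb (SD, n = 6) and ranked 9 of 19158 tested genes. gap43.S followed at 257 ± 183 CPM per kb, then stmn2.L at 189 ± 99.6, stmn1.S at 181 ± 102 and dpysl3.L at 157 ± 60.7. The lowest were dpysl5.L at 19.1 ± 9.74, dpysl4.S at 9.67 ± 2.15 and dpysl4.L at 9.17 ± 3.98 CPM per kb. Of 19 neighbours in this order, 2 kept their order in 6 of 6 libraries: gap43.L above gap43.S, and dpysl5.S above dpysl5.L. Both had an exact sign-flip permutation p of 0.0312 (2-sided, n = 6), the smallest this test can give, and an adjusted p of 0.297 over the 19 neighbours, so 0 passed. The order was set from the same 6 libraries, and none could pass unless most of the 19 had this smallest p. That 0 passed therefore decides nothing about the order. The 17 others had p-values from 0.125 to 0.938 (exact permutation test), and their order was not resolved beyond the spread between libraries.

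The order per length rests on the gene models. The annotated exons of gap43.S are 3157 bases long, of which 2174 are 3′ UTR, against 1262 bases for gap43.L, while the coding sequences are alike at 645 and 639 bases. Per kb of coding sequence, gap43.L was at 4155 ± 1028 and gap43.S at 1862 ± 1184 CPM per kb, scaled to the coding totals (SD, n = 6), ranks 4 and 29 of 27409 genes with coding reads. stmn2.L (605 ± 363) and stmn2.S (357 ± 125) came next, and dpysl5.L, dpysl4.L and dpysl4.S were again the last 3. Here gap43.L was above gap43.S in 5 of 6 libraries (unadjusted p 0.0625, exact sign-flip permutation test). In NPC replicate 3 it was below, at 3523 against 3855 CPM per kb. Of the 19 neighbours in the coding order, 0 passed (smallest adjusted p 0.594, exact sign-flip permutation test), under the same limit of the test.

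**Figure D3:**
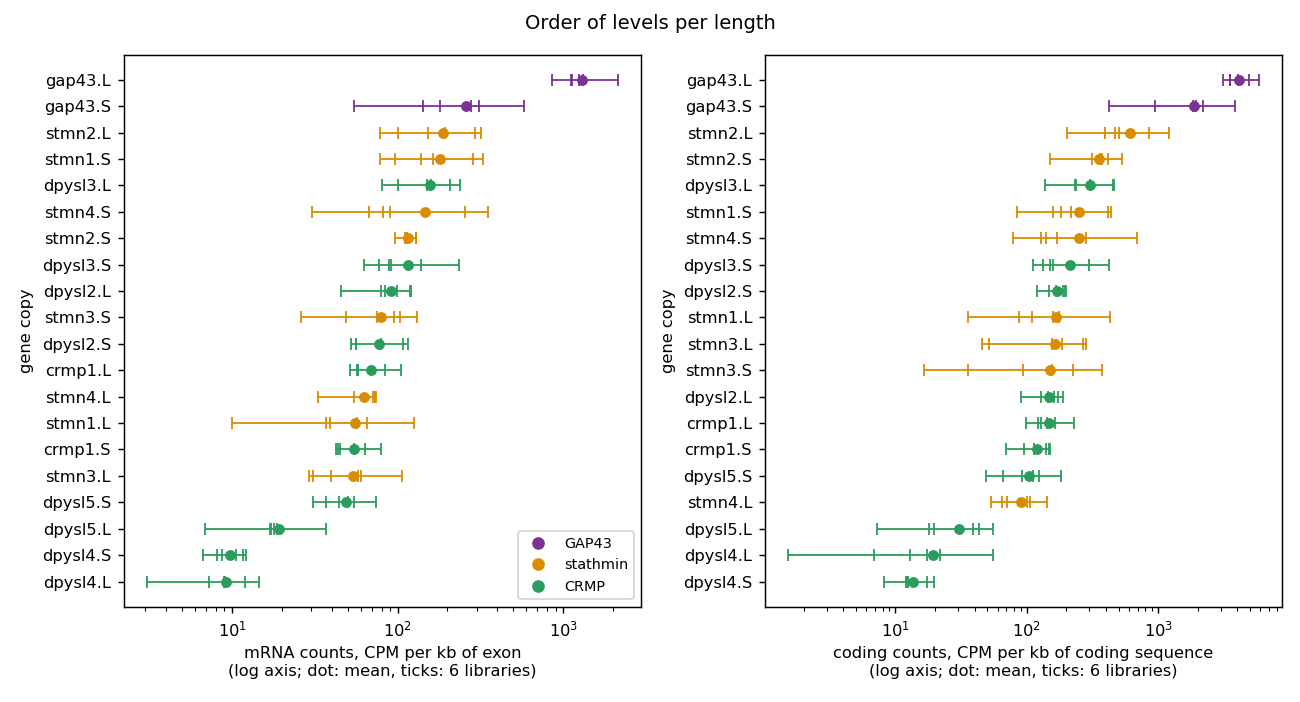
Levels per length in both count tables on log axes, with 1 row per gene copy, a dot at the mean and ticks at the 6 libraries, coloured by family. Both GAP43 copies had the highest means in both orders, with gap43.L at 1303 CPM per kb of exon and 4155 per kb of coding sequence. In each order gap43.S was above stmn2.L, the next copy, in 4 of 6 libraries, and the middle of each order overlapped.

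The balance of the L and S copies was the next comparison. Over mRNA counts the L copy held over 50% of the pair's reads on average in 6 of 10 pairs, and the median L share was 52.8%, against 54.4% over all 5406 pairs with at least 20 reads in every library. The L share of crmp1 was the steadiest, at 58.3, 55.0 and 57.9% in IN and 57.0, 58.0 and 52.3% in NPC. The L share of stmn3 was the least steady, at 53.4, 68.1 and 43% in IN and 33.9, 35.4 and 88.2% in NPC, so in both groups the prevailing copy differed between libraries. For gap43 the L share was 86.4, 77.9 and 59.3% in IN and 71.1, 75.5 and 47.6% in NPC, and gap43.S held more reads than gap43.L in 1 library, NPC replicate 3. The S copy held more mRNA reads than the L copy in every library in 4 pairs, with L shares of 9.67% to 43.1% for stmn1, 10.3% to 45.1% for stmn4, 32.3% to 45.1% for dpysl2 and 16.8% to 37.9% for dpysl5. In coding counts this held for stmn4 and dpysl5, while the L share of stmn1 reached 55.6% in NPC replicate 3. L shares were not scaled to length. The annotated exons of dpysl2.L are 1974 bases long, against 3593 for dpysl2.S. Per kb of exon, dpysl2.L had the higher mean, at 91.1 against 77.7 CPM per kb. For stmn1, stmn4 and dpysl5 the S copy had the higher mean per kb of exon as well. The coding sequences of stmn1 are 438 bases (L) and 729 bases (S). In 0 of 10 pairs did the L share separate the groups in mRNA counts, against 8.90% of all pairs.

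Over coding counts, 3 of 10 pairs had L shares without overlap between the groups, against 9.50% of all 3716 pairs. For dpysl2 the coding L share was 54.6, 55.2 and 53.3% in IN and 41.2, 45.2 and 48.8% in NPC, so dpysl2.L held more coding reads than dpysl2.S in every IN library and fewer in every NPC library. The coding sequence of dpysl2.L is longer, at 1974 bases against 1722 for dpysl2.S. Per kb of coding sequence the copies were near equal in IN, at 173.9, 129.0 and 187.7 (dpysl2.L) and 165.8, 120.1 and 188.4 CPM per kb (dpysl2.S). In NPC dpysl2.L was lower in every library per kb as well, at 89.9, 143.9 and 161.3 against 146.8, 199.9 and 194.2. For stmn4 it was 45.5, 42.1 and 48.5% in IN and 40.5, 20.4 and 21.9% in NPC, higher in every IN library. For dpysl5 it was 12.6, 9.13 and 15.1% in IN and 30.9, 44.8 and 16.4% in NPC, lower in every IN library. These 3 pairs were without overlap in the TopHat2 coding counts as well, a second alignment of the same libraries, against 9.47% of all pairs there. Each had an exact permutation p of 0.1 (2-sided, 3 libraries against 3), the smallest possible, and an adjusted p of 0.333 over the 10 pairs, so 0 passed. Over mRNA counts the same L shares overlapped, at 43.8, 45.1 and 37.8% in IN and 32.3, 41.0 and 36.2% in NPC for dpysl2, 45.1, 40.2 and 38.0% in IN and 44.9, 17.2 and 10.3% in NPC for stmn4 and 26.0, 16.8 and 23.7% in IN and 31.6, 37.9 and 17.9% in NPC for dpysl5. The sources used here do not say how reads matching both copies were assigned, so shares within a pair are uncertain to that extent.

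**Figure D4:**
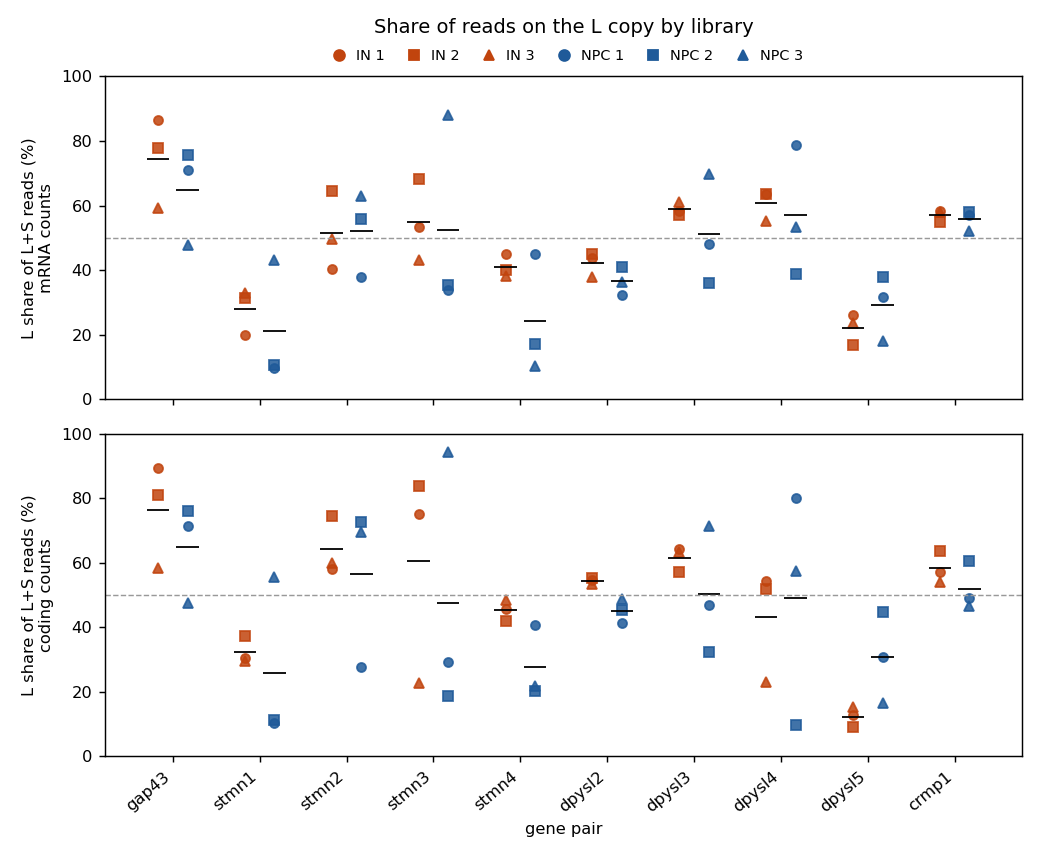
Percent of the pair's reads on the L copy in each library, from mRNA counts (top) and coding counts (bottom), IN left of NPC, with a bar at each group mean and a dashed line at 50%. Coding counts put every IN library of dpysl2 above 50% and every NPC library below, and crmp1 varied least in mRNA counts. Shares are not scaled to length, and dpysl2.L has the longer coding sequence.

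The part of each transcript that the reads came from differed between members. Coding sequence held 88.4, 87.4 and 86.0% in IN and 89.1, 92.1 and 88.4% in NPC of gap43.L mRNA reads. For gap43.S the coding share was 67.5, 72.4 and 89.4% in IN and 87.6, 90.2 and 88.8% in NPC, lower in IN replicates 1 and 2 than in the other 4 libraries. These shares were above those of the libraries as a whole, 45.9%, 54.0% and 60.9% in IN and 45.1%, 55.1% and 61.0% in NPC. At the low end, coding sequence held 19.4, 22.7 and 26.4% in IN and 47.1, 31.4 and 57.5% in NPC of dpysl5.L reads and 31.7, 38.2 and 38.3% in IN and 49.95, 19.96 and 43.1% in NPC of stmn2.S reads. The widest range over the 6 libraries was that of dpysl4.L, at 41.3, 49.5 and 24.1% in IN and 77.7, 16.9 and 59.1% in NPC, and stmn3.S was at 19.1, 18.0 and 59.5% in IN and 67.2, 53.3 and 19.0% in NPC. dpysl2.L and dpysl4.S have no annotated UTR, yet their coding shares were 93.5, 81.9 and 98.3% in IN and 80.0, 95.8 and 88.0% in NPC for dpysl2.L and 61.0, 80 and 100% in IN and 71.7, 99.2 and 50.6% in NPC for dpysl4.S. Over all 13529 genes with 1 transcript and no annotated UTR the share was 61.3%, 72.2% and 82.7% in IN and 58.2%, 74.9% and 83.7% in NPC. The mRNA counts therefore held reads that the coding counts did not take from genes annotated as coding sequence alone; where these fell was not tested, and levels per kb of exon carry them.

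**Figure D5:**
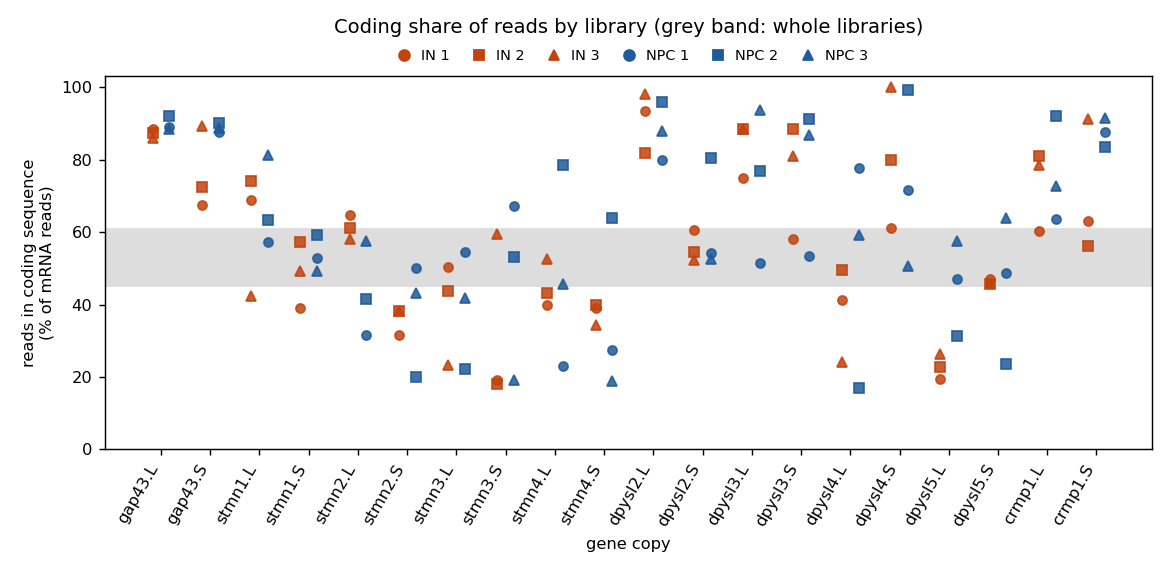
Reads in coding sequence as a percent of mRNA reads, per gene copy and library, IN left of NPC; the grey band is the range of whole libraries, 45.1% to 61.0%. The GAP43 copies lay above the band in every library, and the lowest share was that of dpysl4.L in NPC replicate 2, at 16.9%.

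The spread between libraries also differed within the set. The SD of log2 CPM within groups ran from 0.175 for stmn2.S to 1.09 for stmn1.L, with a median of 0.674, against 1.60 over all genes tested. Set beside genes within 2-fold of the same mean CPM, 12 of 20 members had an SD at or below the median gene. For stmn2.S, 0.905% of 1105 genes at its level had an SD as low or lower, and for dpysl4.S 0.296% of 7783. At the other end, 96.6% of 145 genes at the level of gap43.S had an SD at or below its 1.08, while gap43.L had 0.398. The SEs of the fold changes did not follow these SDs, at 1.26 for dpysl4.S (SD 0.299) and 0.57 for gap43.S (SD 1.08).

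Further genes were read from the same fit in 5 lists. These held growth cone, axonal adhesion and regeneration-associated genes, and enzymes and partners of these proteins. After adjustment 0 members of the 5 lists passed in either direction. Of 59 tested growth cone membrane and actin genes, 35 had a fold change below 0 (median -0.15), of 26 axonal adhesion genes 11 (median 0.18), of 51 genes for enzymes acting on GAP43, stathmins or CRMPs 31 (median -0.12), of 33 genes for CRMP partners 20 (median -0.14), and of 36 regeneration-associated genes 19 (median -0.07). Over all genes tested, 51.0% had a fold change below 0. At an unadjusted p under 0.05 the first 4 lists had 0 genes and the regeneration list had 1 higher and 1 lower in IN, 2 of 36, against 3.43% of all genes tested. The 3 genes of lowest p in each list are given next, a choice that favours groups without overlap, which 8.76% of all genes had; none passed after adjustment (adjusted p 1.000, edgeR).

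In the growth cone and actin list, arpc2.S, a subunit of the actin-nucleating Arp2/3 complex, was at 17.9, 35.4 and 65.1 CPM in IN and 37.6, 181 and 108 CPM in NPC. The actin-binding ablim1.L had 1068, 243 and 330 reads in IN and 189, 87 and 127 reads in NPC, higher in every IN library. add1.S, an adductin of the membrane skeleton, was at 102, 126 and 101 CPM in IN and 241, 94.0 and 315 CPM in NPC. These had unadjusted p-values of 0.0856, 0.0983 and 0.109 (edgeR), and only ablim1.L had groups without overlap. Among the adhesion molecules, both copies of ncam2 led, ncam2.L at 274, 176 and 76.7 CPM in IN and 107, 71.5 and 94.5 CPM in NPC and ncam2.S at 171, 267 and 124 CPM in IN and 115, 77.2 and 113 CPM in NPC. nfasc.S, which encodes neurofascin of the axon initial segment, was at 254, 293 and 166 CPM in IN and 462, 391 and 289 CPM in NPC. Of these, ncam2.S was higher in every IN library (unadjusted p 0.147, edgeR), and the other two overlapped.

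Of the enzymes, the p21-activated kinase pak3.L was at 80.4, 152 and 141 CPM in IN and 247, 409 and 155 CPM in NPC. pak2.L, of the same kinase family, was at 26.7, 20.7 and 25.8 CPM in IN and 53.4, 86.5 and 60.6 CPM in NPC. ppp3ca.L, a catalytic subunit of calcineurin, which dephosphorylates GAP43, was at 212, 109 and 75.5 CPM in IN and 209, 307 and 211 CPM in NPC. Both kinase genes were lower in every IN library, and ppp3ca.L overlapped, with unadjusted p-values of 0.0624, 0.116 and 0.140 (edgeR). Of the CRMP partners, the kinesin heavy chain genes kif5a.L and kif5b.S were at 236, 38.8 and 210.3 CPM in IN and 81.8, 35.4 and 70.7 CPM in NPC (kif5a.L) and 104, 24.7 and 47.1 CPM in IN and 49.4, 67.9 and 318 CPM in NPC (kif5b.S). sema3a.L, which encodes the semaphorin whose signal CRMPs relay, had 138, 238 and 171 reads in IN and 20, 22 and 25 reads in NPC, higher in every IN library and not past the test (log2 fold change 2.78, unadjusted p 0.112, edgeR). sema3a.L reached the mean of 5 CPM needed to be named only through IN (18.5 CPM, against 2.68 CPM in NPC), which favours such a gap. Both kinesin genes overlapped between the groups.

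In the regeneration list, socs3.L, an inhibitor of cytokine signalling that restrains axon regeneration in mice, had 0, 2 and 7 reads in IN and 85, 117 and 254 reads in NPC. cebpd.L, a transcription factor gene of injury and cytokine responses, had 63, 64 and 195 reads in IN and 2, 0 and 1 reads in NPC. crlf3.L, a cytokine receptor-like gene, had 119, 167 and 360 reads in IN and 57, 0 and 25 reads in NPC. These 3 genes had groups without overlap, socs3.L lower and the others higher in IN, with unadjusted p-values of 0.0126, 0.0146 and 0.128 (edgeR). Each reached the mean of 5 CPM needed to be named only through the group where it was high. Means in IN and NPC were 0.308 and 18.6 CPM for socs3.L, 10.9 and 0.113 for cebpd.L, and 21.9 and 3.07 for crlf3.L. That choice favours a gap between groups, so these gaps are no support for a difference.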

How the data were processed

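The deposited values are raw read counts in whole numbers, with 3 tables: STAR over mRNA (used here for the main results), STAR over coding sequence and TopHat2 over coding sequence, per the file headers and deposited sheet names. Per the submitters' processing notes, FastQC, Trimmomatic, HTSeq and DESeq2 were also used, without versions. The sources used here give neither the strand setting nor the handling of reads matching both copies. Columns D were read as dark (NPC) and L as light (IN), with the numbers of the sample titles. Gene models came from the deposited annotation of build 9.1, per the file headers; coordinates are 1-based, and coding tables hold 1 transcript a gene.

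Genes of low count were left out (filterByExpr), library sizes were scaled by TMM, and edgeR 4.0.16 in R 4.3.3 gave the tests (quasi-likelihood, robust, 2-sided, Benjamini-Hochberg over 19158 genes, threshold 0.05); limma 3.58.1 and DESeq2 1.42.0 were alternatives. Levels per kb used the union of annotated exons. L shares were compared by exact permutation, and neighbours in the order of levels by exact sign flips of log2 levels with 0.5 reads added. The code was tested on simulated counts. The labels name no molecular identifiers, so reads may not be independent molecules. Named were all copies of the 10 symbols and, from each further list, up to 3 genes of lowest p with at least 5 CPM, chosen without regard to direction. Members and lists were chosen with earlier results of these data known.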

Additional observations from a re-analysis of the deposited data

How the results depend on the processing

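By edgeR 0 genes passed (3.43% at an unadjusted p under 0.05), and 0 also with either scaling, a filter of 1 CPM in 3 libraries, limma-voom, either coding table, summed copies or the replicate block. Without a filter 16 of 31055 genes passed, and with DESeq2 88 of 19158, none of them a member. With 1 library left out 0 to 2 genes passed, 2 without NPC replicate 3 and 1 without NPC replicate 1 (the cause was not tested). The main test did not pair libraries by replicate number, and whether the numbers mark pairs was not settled. Over 19158 genes the deviations from group means correlated at 0.105, 0.0439 and 0.0771 between libraries of the same number. Only the first was above 0.1, and the planned tests named no level for pairing. Each library correlated best with its own number, a hint from the data and not the design. All other pairings were negative, but this adds no support for pairing. Deviations from a group mean cancel within the group, so positive values at the same number push the others below 0 on average. Coding shares of whole libraries were also alike by number. They were 45.9% (IN) and 45.1% (NPC) for number 1, 54.0% and 55.1% for 2, and 60.9% and 61.0% for 3. With the replicate block on mRNA counts 0 members passed, gap43.S having a log2 fold change of -1.20 (adjusted p 0.637, edgeR). At an unadjusted p under 0.05 there were 3 of 20 members in that fit, against 645 of 19158 genes. These members were gap43.S (0.000166), stmn4.S (0.00101) and gap43.L (0.0463, edgeR), all lower in IN. With the replicate block on coding counts, chosen after seeing the data, 8 of 15422 genes tested passed, 1 of them among the 20 members. That member was gap43.S at -1.41 (adjusted p 0.0130, edgeR, and 0.0130 to 1.000 over its alternatives). In that fit gap43.L was at -0.48 (unadjusted p 0.0208, edgeR) and did not pass.

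Directions that turned were all in results not past the threshold, as follows (log2 fold changes unless stated). With median-of-ratios size factors -0.00424 for stmn2.L. With DESeq2 -0.00424 for stmn2.L. With limma-voom 0.0914 for dpysl3.L. With STAR coding counts 0.0708 for stmn3.L, 0.19 for dpysl3.L, -0.57 for dpysl4.L, 7.61 percentage points for the L share of stmn2 and -5.93 percentage points for the L share of dpysl4. With TopHat2 coding counts 0.14 for stmn3.L, 0.18 for dpysl3.L, -0.49 for dpysl4.L, 7.20 percentage points for the L share of stmn2 and -3.08 percentage points for the L share of dpysl4. With the replicate block 0.0669 for dpysl3.L. With the replicate block on coding counts 0.11 for stmn3.L and 0.31 for dpysl3.L. With copies summed -0.0592 for dpysl2.L.

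With 1 library left out in turn, log2 fold changes ranged -0.15 to 1.16 for stmn1.S, -0.59 to 0.49 for stmn2.L, -0.0513 to 0.18 for stmn2.S, -0.57 to 0.53 for stmn3.L, -0.68 to 0.18 for stmn3.S, -0.31 to 0.15 for stmn4.L, -0.24 to 0.37 for dpysl2.L, -0.55 to 0.16 for dpysl2.S, -0.34 to 0.43 for dpysl3.L, -0.82 to 0.21 for dpysl3.S, -0.12 to 0.95 for dpysl4.L, -0.43 to 0.17 for crmp1.L, -0.46 to 0.0115 for crmp1.S. L share differences, in percentage points, ranged -7.84 to 5.003 for stmn2, -6.96 to 20.20 for stmn3, -0.0306 to 16.76 for dpysl3, -5.17 to 14.75 for dpysl4, -0.47 to 2.39 for crmp1. The other 7 members and 5 pairs kept their direction with each library left out. The exact tests could not reach the threshold with 3 libraries a group. Alternatives for the order of levels left 0 neighbours past it, under the limit of that test given with the order.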
